A study of Mus musculus with 30 samples.

Results

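Disease-associated microglia (DAM) genes were followed in the RNA of microglia from the developing, the adult and the repopulated mouse brain. The group was made up of 10 named genes, *Spp1*, *Gpnmb*, *Itgax*, *Apoe*, *Clec7a*, *Lpl*, *Igf1*, *Cst7*, *Cstb* and *Lgals3*, and every row of the deposited expression table that carried 1 of these symbols was taken. Of the 10 genes, 7 had a row, and they gave 9 of the 14225 rows, because *Apoe* had 3. *Clec7a*, *Igf1* and *Lgals3* had no row and were not analysed here.

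CD11b+ microglia were isolated with magnetic beads from whole brains of C57BL/6J mice whose mothers had received saline (Saline) or poly(I:C), a double-stranded RNA that mimics a viral infection and causes maternal immune activation (MIA). Each of 10 groups had 3 libraries, and these were Saline and MIA offspring at embryonic day 17 (E17) and postnatal days 7, 20 and 60 (P7, P20, P60), the P60 offspring being split into CTRL and MG-REP. Male and female offspring were used, per the study. The P60 CTRL offspring were given control chow. The P60 MG-REP offspring of each kind of mother received PLX5622, which inhibits the receptor CSF1R and depletes microglia, in the chow from P21 to P42, after which microglia repopulated the brain. A library came from the pooled brains of 1 litter at E17, from 3 pooled brains at P7 and from 1 brain at P20 and P60. The beads take any CD11b+ cell, so macrophages, monocytes and neutrophils could be carried along, and in bulk RNA fewer cells of a type and less RNA per cell cannot be told apart.

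Microglia around amyloid plaques, dying neurons and demyelinated axons lower their homeostatic genes and raise a common set of genes for lipid handling, lysosomes and phagocytosis, and this state is called disease-associated. Several of the same genes, among them *Spp1*, *Gpnmb*, *Itgax*, *Igf1* and *Lpl*, are also known from microglia of the normal early postnatal white matter. The levels at E17 and P7 therefore served as a measure of how far the genes go in development, against which their levels after repopulation could be set.

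The values were transcript levels scaled for transcript length and library size (TPM), and each row was a single RefSeq transcript and not a whole gene. That mattered for the low rows. The rows of genes with 1 curated RefSeq transcript had a median mean level of 25.47 TPM (8405 rows), and those of genes with 2 or more had 6.26 TPM (5719 rows). *Gpnmb*, *Lpl*, *Cst7* and *Cstb* have 1 curated transcript each and *Itgax* has 3. *Spp1* was listed by 1 of its 5 transcripts (NM_001204233) and *Apoe* by 3 of its 4 (NM_001305819, NM_001305843 and NM_001305844), and these 4 rows stayed below 11 TPM in all 30 libraries, so they are levels of those transcripts and not of the genes. On GRCm38.p6 (mm10) the genes with a row lie at chr5:104435111-104441053 (*Spp1*), chr6:49036518-49058182 (*Gpnmb*), chr7:128129526-128150657 (*Itgax*), chr7:19696244-19701310 (*Apoe*), chr8:68880555-68906932 (*Lpl*), chr2:150570415-150578944 (*Cst7*) and chr10:78425670-78427622 (*Cstb*). From the steps between low TPM values, an estimated 7990000 to 12820000 reads per library were counted in the rows of the table, which is not the number sequenced. A *Spp1* value then stood for 0 to about 13 reads.

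The sequence before the transcription start is shown for 3 members that stand for the courses described here, *Gpnmb* for a peak at P7, *Cst7* for a peak after repopulation and *Itgax* for a high level in both. The sequences are from RefSeq on GRCm38.p6 (mm10), cover 250 bases up to the start, and run 5′ to 3′ on the strand of the gene, which is plus for all 3. The window of *Gpnmb* is chr6:49036268-49036517, that of *Itgax* chr7:128129300-128129549 and that of *Cst7* chr2:150570165-150570414. The bases right after the start were found in the transcript of the row for *Itgax* and *Cst7*, but not for *Gpnmb*. The *Gpnmb* window ends at the base before the listed gene start, chr6:49036518, and the match was sought in the GENCODE sequence. Whether that window belongs to the transcript measured was not settled. Capitals mark matches to 4 short motifs.
Gpnmb: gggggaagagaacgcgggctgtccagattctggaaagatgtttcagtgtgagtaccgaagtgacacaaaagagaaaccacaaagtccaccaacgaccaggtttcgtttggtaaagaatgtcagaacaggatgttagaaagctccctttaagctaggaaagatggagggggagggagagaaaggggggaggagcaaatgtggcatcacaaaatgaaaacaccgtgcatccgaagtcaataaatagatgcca
Itgax: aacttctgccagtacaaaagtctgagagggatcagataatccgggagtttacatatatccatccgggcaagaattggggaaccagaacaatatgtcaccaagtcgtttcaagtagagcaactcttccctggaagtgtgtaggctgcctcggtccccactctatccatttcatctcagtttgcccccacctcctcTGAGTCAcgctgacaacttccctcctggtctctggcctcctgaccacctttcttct
Cst7: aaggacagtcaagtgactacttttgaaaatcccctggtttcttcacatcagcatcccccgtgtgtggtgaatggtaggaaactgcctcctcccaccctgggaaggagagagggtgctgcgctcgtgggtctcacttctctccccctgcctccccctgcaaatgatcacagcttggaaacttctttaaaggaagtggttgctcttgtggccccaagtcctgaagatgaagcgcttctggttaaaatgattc

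Both strands were searched for TGANTCA (bound by AP-1), CACGTG and CATGTG (cores bound by factors of the MITF and TFE family) and GAGGAA (the core bound by PU.1). *Itgax* held 1 match, to TGANTCA, while *Gpnmb* and *Cst7* held none. Of 32851 mouse promoter windows of the same length, 6.749% held TGANTCA, 6.021% CACGTG, 12.25% CATGTG and 23.25% GAGGAA. *Lpl* and *Cstb* had no entry in the promoter table.

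Some facts of the libraries bear on every comparison with P60 libraries. All 6 MG-REP libraries and replicate 1 of both CTRL groups held 124 to 174 TPM of *Xist*. This RNA silences an X chromosome in females. Replicates 2 and 3 of both CTRL groups held at most 0.29 TPM of it and 268 to 318 TPM of Y-linked transcripts. Every P20 library held 172 to 193 TPM of *Xist* and at most 0.59 TPM of Y-linked transcripts. P7 MIA replicate 2 held 222 and 0.1 TPM, and the other E17 and P7 libraries held both. Comparisons between ages were not repeated with *Xist*, and the part of sex in them was not tested. The summed markers of microglia were the highest of the cell type lists in every library, at 14958 to 42938 TPM. They were lower in the E17, P7 and Saline + MG-REP libraries than in most of the others. Of these 5 markers, 4 are also in the list of homeostatic genes. Choroid plexus markers summed to 1357–12344 TPM in E17 MIA (median 3580) and 1421–3115 TPM in E17 Saline. At P7 they summed to 1934–10106 TPM in MIA and 1294–3423 TPM in Saline. At P20 Saline was the higher, at 3528–7136 TPM against 3108–4618 TPM in MIA. P60 Saline + CTRL held 505–2661 TPM. The 9 monocyte and neutrophil markers summed to 5412 TPM in Saline + MG-REP replicate 2, against 93.9 and 371 TPM in the other two libraries of that group.

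The 8 border macrophage markers, whose cells are CD11b+ too, summed to 2534–2802 TPM at P7 in Saline offspring, 1234–2320 TPM in Saline + MG-REP, 905–1189 TPM in Saline + CTRL and 670–861 TPM in MIA + MG-REP. Of the 8, 2 were higher and 1 lower in Saline + MG-REP than in Saline + CTRL, and 5 were higher and 1 lower at Saline P7 than at P60. Over all rows, 11.9% were higher and 14.9% lower in Saline + MG-REP, and 24.9% and 16.1% at Saline P7. After repopulation the higher ones were *Clec12a* (2.95 ± 0.36 SE on the log2 scale, adjusted p = 8.5e-07 by limma) and *Pf4* (1.97 ± 0.34, adjusted p = 0.0001), and the lower one was *Cd163*, with means of 0.02 and 0.54 TPM. At P7 *Lyve1* was higher (2.64 ± 0.35, adjusted p = 2.02e-06). The part of these cells in the member values was not tested.

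**Figure D1:**
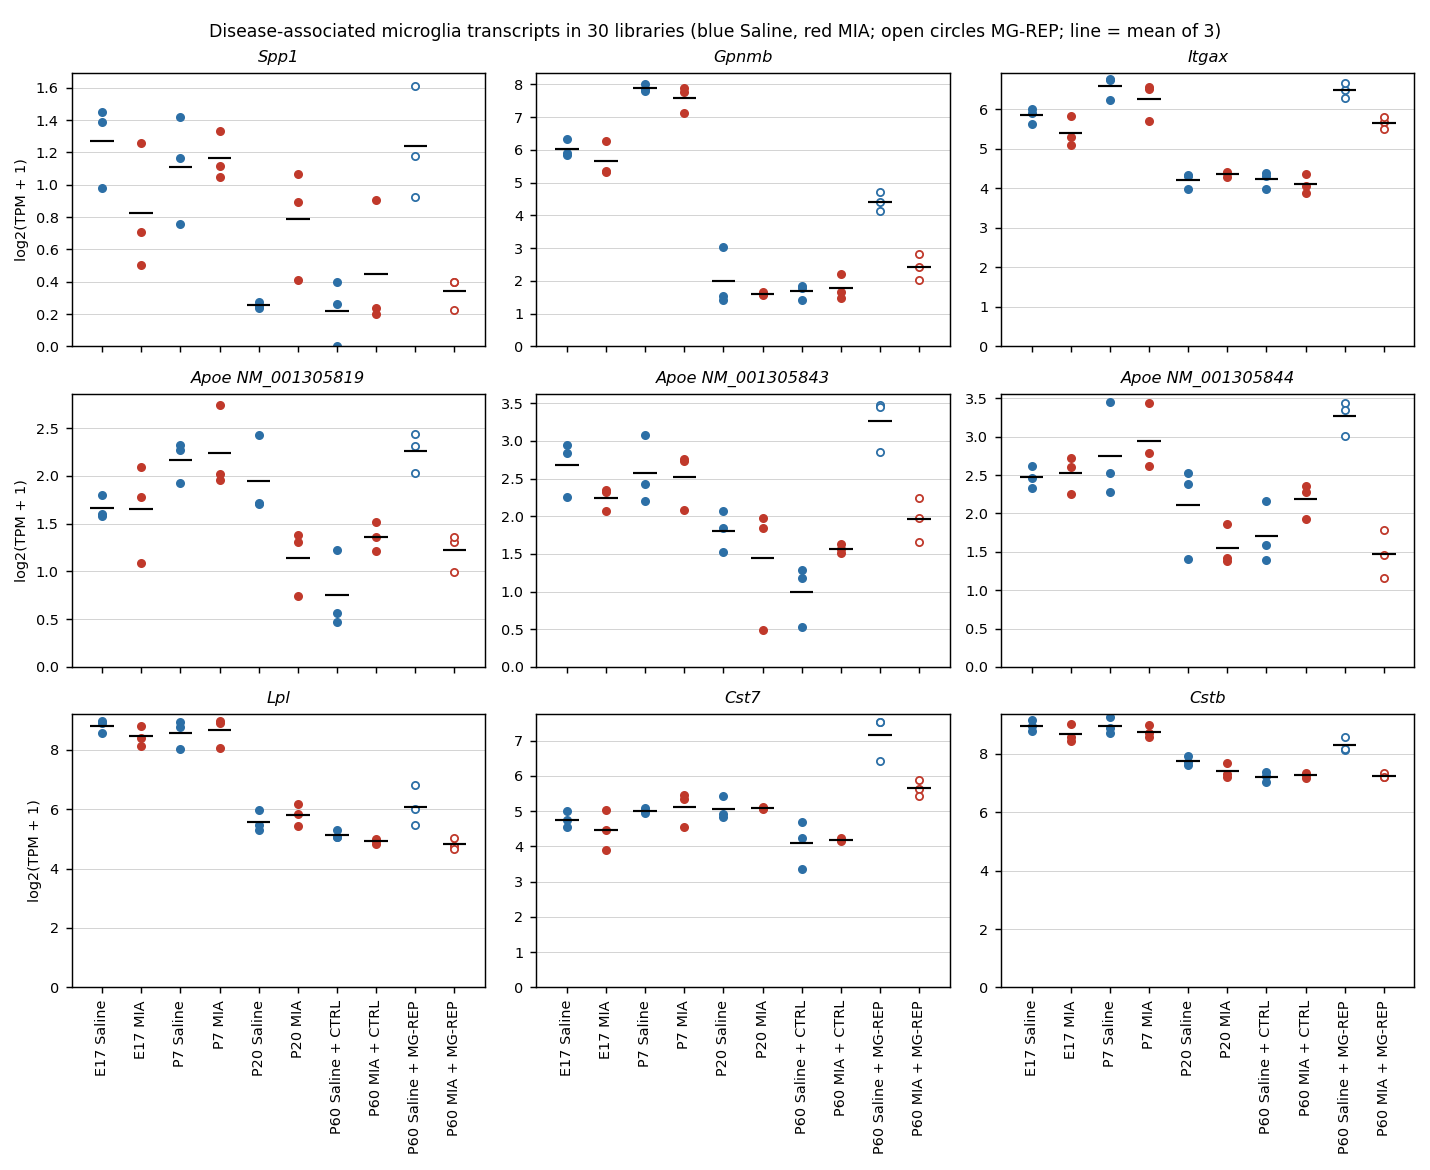
Level of each of the 9 member transcripts, as log2(TPM + 1), in every library of the 10 groups, with blue points for Saline, red points for MIA, open circles for MG-REP and a line at the mean of the 3 libraries. *Gpnmb*, *Lpl* and *Cstb* stand highest at E17 or P7, *Cst7* stands highest in Saline + MG-REP at a mean of 152 TPM, and at P60 the MIA + MG-REP points lie below the Saline + MG-REP points in all 9 panels.

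The first question was how the members change with age in Saline offspring. All comparisons are from 1 limma fit on log2(TPM + 1) with Benjamini-Hochberg adjustment over the 14225 rows, a threshold of 0.05, and log2 differences given with their standard error. The E17, P7 and P20 comparisons share the 3 P60 Saline + CTRL libraries, and so does the comparison of Saline + MG-REP. At P7 all 9 member rows were higher than at P60, where 24.9% of all rows were. At E17, 8 of the 9 were higher, where 25.4% of all rows were, the exception being *Cst7*. At P20, 1 of the 9 was higher, *Apoe* NM_001305819, where 2.49% of all rows were. The members' median log2 difference from P60 was 1.62 at E17, 1.57 at P7 and 0.44 at P20, against 0.01, 0.07 and 0.06 for all rows. With median-ratio scaling the share of higher among all called rows went from 60.6% to 49.3% at P7 and from 70.9% to 55.2% at P20, and the members called higher at P7 went from 9 to 8.

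*Gpnmb*, a transmembrane glycoprotein of lysosomes and phagosomes, had the steepest course. Its level was 56.8, 79.5 and 59.1 TPM at E17, 221, 256 and 229 TPM at P7, 1.91, 1.69 and 7.15 TPM at P20 and 2.59, 2.46 and 1.66 TPM in P60 Saline + CTRL. Every P7 library was above every E17 library, and both ages lay far above P20 and P60. The P7 mean was 105 times the P60 mean (log2 6.20 ± 0.33, adjusted p = 1.31e-12) and the E17 mean 29.1 times it (4.35 ± 0.33, adjusted p = 2.58e-10).

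*Lpl* encodes lipoprotein lipase, which frees fatty acids from lipoproteins. It was measured at 381, 499 and 474 TPM at E17, 260, 429 and 486 TPM at P7, 38.6, 42.8 and 61.6 TPM at P20 and 32.2, 32.3 and 38.5 TPM at P60. E17 and P7 overlapped, and the fall came between P7 and P20. The differences from P60 were 3.67 ± 0.29 at E17 (adjusted p = 4.59e-10) and 3.43 ± 0.29 at P7 (adjusted p = 1.9e-09).

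*Cstb* encodes cystatin B, an intracellular inhibitor of cysteine cathepsins, and was the most abundant member. It stood at 438–570 TPM at E17, 416–607 TPM at P7, 197–245 TPM at P20 and 130–165 TPM at P60. E17 and P7 had nearly equal means (500 and 498 TPM), 3.38 and 3.36 times the P60 mean, with log2 differences of 1.75 ± 0.17 (adjusted p = 1.13e-08) and 1.73 ± 0.17 (adjusted p = 2.06e-08). At P20 its libraries still lay above those of P60, but the difference of 0.55 ± 0.17 did not pass (adjusted p = 0.07).

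*Itgax* encodes CD11c, the alpha chain of an integrin that pairs with the beta chain Itgb2. It was measured at 48.2, 62.6 and 59.1 TPM at E17, 74.2, 105 and 107 TPM at P7, 14.9–19.0 TPM at P20 and 14.8–19.9 TPM at P60. The P7 libraries were all above those of E17, and P20 and P60 overlapped. The P60 mean was exceeded 3.17-fold at E17 (1.62 ± 0.21, adjusted p = 1.04e-06) and 5.36-fold at P7 (2.35 ± 0.21, adjusted p = 5.39e-09).

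*Cst7* encodes cystatin F, which inhibits cathepsins inside lysosomes, and it had no developmental peak. Its level was 22.3–30.8 TPM at E17, 30.1–33.0 TPM at P7, 27.8–42.1 TPM at P20 and 24.8, 17.9 and 9.36 TPM at P60. The ages thus lay close together, with P60 lowest. The differences from P60 were 0.66 ± 0.31 at E17 (adjusted p = 0.084), 0.92 ± 0.31 at P7 (adjusted p = 0.021) and 0.96 ± 0.31 at P20 (adjusted p = 0.088). Without Saline + CTRL replicate 1, the highest CTRL library, *Cst7* passed at E17 (0.95, adjusted p = 0.023) and at P20 (1.26, adjusted p = 0.048). The call at P7 was not firm. Without Saline + CTRL replicate 3, the lowest library, the difference was 0.55 (adjusted p = 0.169), and the adjusted p was 0.05008 to 0.056 with median-ratio scaling, quantile normalization, the groups compared alone or without P7 Saline replicate 2.

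*Spp1* encodes osteopontin, a secreted ligand of integrins and CD44. Its transcript was listed at 0.97, 1.73 and 1.62 TPM at E17, 0.69, 1.24 and 1.67 TPM at P7, 0.21, 0.18 and 0.19 TPM at P20, and 0.2, 0 and 0.32 TPM at P60. E17 and P7 were above both later ages, at an estimated 4 to 12 reads against 0 to 2 reads. The differences from P60 were 1.05 ± 0.23 at E17 (adjusted p = 0.00049) and 0.89 ± 0.23 at P7 (adjusted p = 0.0028), on a scale that understates changes this close to 0.

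*Apoe* encodes apolipoprotein E, the main lipid carrier of the brain. The P60 Saline + CTRL means of its 3 transcripts were 0.73, 1.05 and 2.36 TPM for NM_001305819, NM_001305843 and NM_001305844, and the P7 means were 3.53, 5.14 and 6.17 TPM. The E17 means were 2.17, 5.54 and 4.56 TPM. All 3 rows differed from P60 at both ages (log2 differences 0.76 to 1.68). Their libraries did not overlap with those of P60, but rows without overlap were not counted over the whole table. The P7 call of NM_001305844 (1.04) did not hold without P7 Saline replicate 1 (0.69, adjusted p = 0.088) or with the groups compared alone (adjusted p = 0.059). NM_001305844 was close to the threshold at E17, with an adjusted p = 0.046, and it was above 0.05 in 5 of the 6 fits that left out 1 library.

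The same ages were compared in MIA offspring. At P7 all 9 rows were higher than in P60 MIA + CTRL, where 25.4% of all rows were, and at E17 4 of 9 were (*Gpnmb*, *Itgax*, *Lpl* and *Cstb*), where 28.8% of all rows were. At P20 none of the 9 passed, where 1.57% of all rows were higher. By limma 2 of the 9 had an unadjusted p under 0.05 there, *Lpl* (0.90 ± 0.29, adjusted p = 0.091) and *Cst7* (0.90 ± 0.31, adjusted p = 0.12). With median-ratio scaling the share of higher among all called rows went from 60.3% to 49.9% at P7 and from 60.5% to 48.4% at P20. *Gpnmb* was measured at 39.7, 76.6 and 38.8 TPM at E17 and at 236, 215 and 138 TPM at P7, against 1.78–3.63 TPM in P60 MIA + CTRL. The log2 difference at P7 was 5.80 ± 0.33 (adjusted p = 2.21e-12). The P7 calls of the *Spp1*, *Cst7* and *Apoe* rows were less firm, with 6 to 8 of the 9 members called when 1 library was left out.

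**Figure D2:**
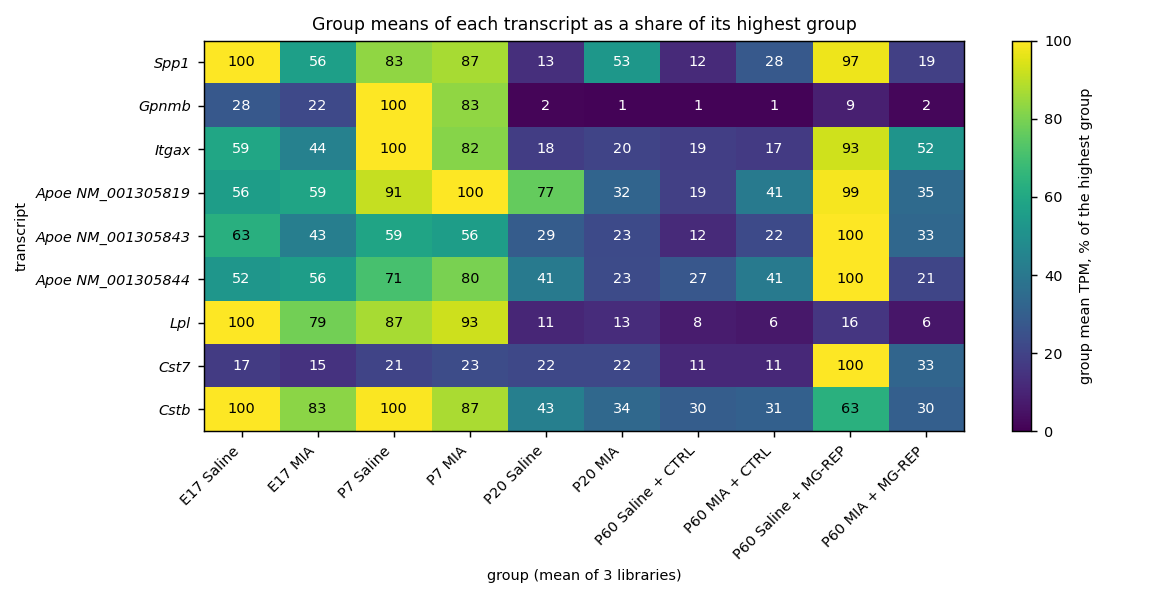
Mean TPM of each member transcript (rows) in each of the 10 groups (columns), as a percent of the group in which that transcript was highest. *Gpnmb* reaches 8.81% of its P7 Saline maximum in Saline + MG-REP and *Lpl* 16.0% of its E17 Saline maximum, while *Cst7* has its maximum in Saline + MG-REP, and its next highest group, MIA + MG-REP, stands at 32.7%.

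The second question was what repopulation did in Saline offspring. In P60 Saline + MG-REP all 9 member rows were higher than in Saline + CTRL, where 11.9% of all rows were higher and 14.9% lower. The libraries of the 2 groups did not overlap for any of the 9, but rows without overlap were not counted over the whole table, so this count has no background. The members' median log2 difference was 1.55, against −0.15 for all rows. With median-ratio scaling the median of all rows was −0.05 and the share of higher among all called rows went from 44.3% to 57.5%, and all 9 members stayed higher. With quantile normalization all 9 stayed higher as well.

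*Cst7* rose most on the log2 scale, from 24.8, 17.9 and 9.36 TPM to 85.3, 186 and 184 TPM, or 8.76 times the mean (3.07 ± 0.31, adjusted p = 5.22e-08). *Gpnmb* rose from 2.59, 2.46 and 1.66 TPM to 25.0, 20.4 and 16.7 TPM, or 9.26 times (2.74 ± 0.33, adjusted p = 7.11e-07). *Itgax* rose from 14.8–19.9 TPM to 88.5, 101 and 76.8 TPM, or 4.97 times (2.25 ± 0.21, adjusted p = 1.38e-08). In these 3 genes the lowest MG-REP library was well above the highest CTRL library.

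*Cstb* rose from 130–165 TPM to 384, 280 and 287 TPM (1.09 ± 0.17, adjusted p = 2.33e-05). *Lpl* was measured at 111, 62.8 and 42.9 TPM after repopulation, against 32.2, 32.3 and 38.5 TPM in CTRL. The difference was 0.95 ± 0.29 (adjusted p = 0.016), and its call depended on single libraries. Without Saline + MG-REP replicate 1 the *Lpl* difference was 0.59 and did not pass (adjusted p = 0.17), and without Saline + CTRL replicate 1 the adjusted p = 0.052. *Lpl* also did not pass in a fit of the 2 groups alone (adjusted p = 0.10) or with *Xist* as a covariate (adjusted p = 0.054).

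The *Apoe* transcripts rose by 1.51 ± 0.27 (NM_001305819, adjusted p = 0.00013), 2.27 ± 0.32 (NM_001305843, adjusted p = 8.47e-06) and 1.55 ± 0.31 (NM_001305844, adjusted p = 0.00044). NM_001305843 had the largest change of the 3, from 0.44, 1.43 and 1.27 TPM to 6.23, 10.1 and 9.98 TPM. *Spp1* went from 0.2, 0 and 0.32 TPM to 2.05, 1.26 and 0.9 TPM (1.02 ± 0.23, adjusted p = 0.0014), which was an estimated 0 to 2 reads against 5 to 13 reads.

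Because the MG-REP libraries all held *Xist* and only 1 CTRL library did, the comparison was repeated with only the P60 libraries of over 50 TPM of *Xist*. That left 1 CTRL library, which is assumed to vary like the other groups. In that fit 8 of the 9 members were higher, the exception being *Lpl* (1.03, adjusted p = 0.13), and *Cst7* had a difference of 2.48. Leaving out Saline + MG-REP replicate 2, the library rich in monocyte and neutrophil markers, all 9 remained higher, *Cst7* at 2.88 and *Gpnmb* at 2.74.

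**Figure D3:**
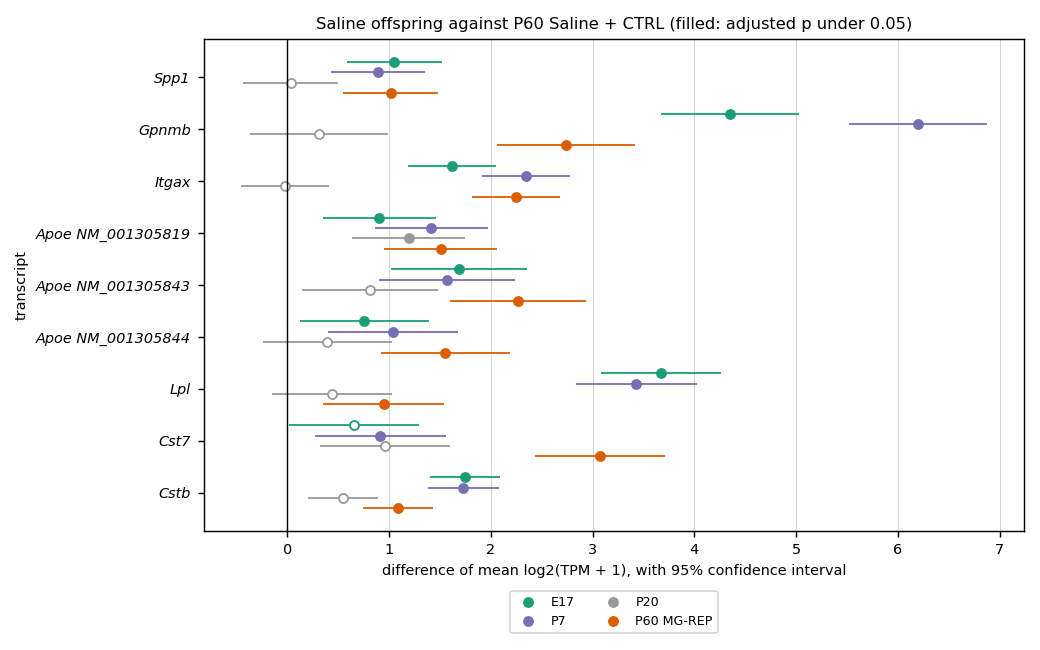
Difference of mean log2(TPM + 1) from P60 Saline + CTRL for each member transcript in Saline offspring at E17, P7 and P20 and in Saline + MG-REP at P60, with 95% confidence intervals and filled points for an adjusted p under 0.05. *Gpnmb* at P7 has the largest difference (6.20), and *Cst7* is the member whose MG-REP difference (3.07) lies farthest above its E17 and P7 differences (0.66 and 0.92).

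The third question was how the repopulated level compares with that of E17 and P7. The members ranged from far below their P7 level to far above it. Against Saline P7, 1 of the 9 rows was higher in Saline + MG-REP (*Cst7*), where 11.3% of all rows were, and 3 were lower (*Gpnmb*, *Lpl* and *Cstb*), where 27.3% of all rows were. Against Saline E17, 3 were higher (*Itgax*, *Apoe* NM_001305844 and *Cst7*), where 13.6% of all rows were, and 3 were lower (*Gpnmb*, *Lpl* and *Cstb*), where 24.6% of all rows were. The median over all rows was −0.18 against P7 and −0.13 against E17, and 0.02 and 0.01 with median-ratio scaling. The share of higher among all called rows went with it from 29.3% to 52.2% against P7 and from 35.5% to 53.2% against E17, so values after that scaling are given as well.

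*Gpnmb* in Saline + MG-REP reached 8.81% of its P7 mean and 31.8% of its E17 mean. Its highest repopulated library (25.0 TPM) was below its lowest E17 library (56.8 TPM). The difference was −3.46 ± 0.33 from P7 (adjusted p = 2.16e-08) and −1.61 ± 0.33 from E17 (adjusted p = 0.00043), and −3.22 and −1.44 after median-ratio scaling.

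*Lpl* reached 18.4% of its P7 mean and 16.0% of its E17 mean, with differences of −2.48 ± 0.29 (adjusted p = 3.94e-07) and −2.73 ± 0.29 (adjusted p = 9.48e-08). After median-ratio scaling these were −2.24 and −2.55. *Cstb* reached 63.7% of P7 and 63.4% of E17, with differences of −0.65 ± 0.17 (adjusted p = 0.0037) and −0.66 ± 0.17 (adjusted p = 0.003). Its libraries did not overlap with those of either age, but after median-ratio scaling its differences were −0.40 (adjusted p = 0.15) and −0.49 (adjusted p = 0.08), so the *Cstb* calls depended on the scaling.

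*Itgax* in Saline + MG-REP was at 92.7% of P7, its libraries overlapped with those of P7, and the difference was −0.10 with a 95% confidence interval of −0.53 to 0.34. It was above E17 by 0.64 ± 0.21 (adjusted p = 0.019), which did not pass without E17 Saline replicate 1 (0.53, adjusted p = 0.091) or without Saline + MG-REP replicate 2 (0.54, adjusted p = 0.084). *Spp1* differed from P7 by 0.13 with an interval of −0.34 to 0.59, and from E17 by −0.04 with an interval of −0.50 to 0.43.

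The *Apoe* transcripts were at 108%, 171% and 141% of their P7 means and at 176%, 158% and 191% of their E17 means, in the order NM_001305819, NM_001305843 and NM_001305844. Against P7 none passed. NM_001305843 had a difference of 0.69 with an interval of 0.03 to 1.36 (adjusted p = 0.093), and 0.91 (adjusted p = 0.028) after median-ratio scaling. It also passed with quantile normalization (0.90, adjusted p = 0.035), without Saline + MG-REP replicate 1 (0.90, adjusted p = 0.04995) and without P7 Saline replicate 1 (0.94, adjusted p = 0.042), and NM_001305844 passed without that last library (0.86, adjusted p = 0.037). Against E17 NM_001305844 was higher by 0.80 ± 0.31 (adjusted p = 0.044), a call that did not hold with 5 of the 6 libraries left out in turn, and NM_001305819 passed only after median-ratio scaling (0.74, adjusted p = 0.021) or quantile normalization (0.69, adjusted p = 0.027).

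*Cst7* stood apart at 484% of its P7 mean and 578% of its E17 mean. The lowest Saline + MG-REP library (85.3 TPM) was above every library of E17 and P7, of which the highest Saline one held 33.0 TPM. The differences were 2.16 ± 0.31 from P7 (adjusted p = 8.16e-06) and 2.41 ± 0.31 from E17 (adjusted p = 1.54e-06), and 2.40 and 2.59 after median-ratio scaling.

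**Figure D4:**
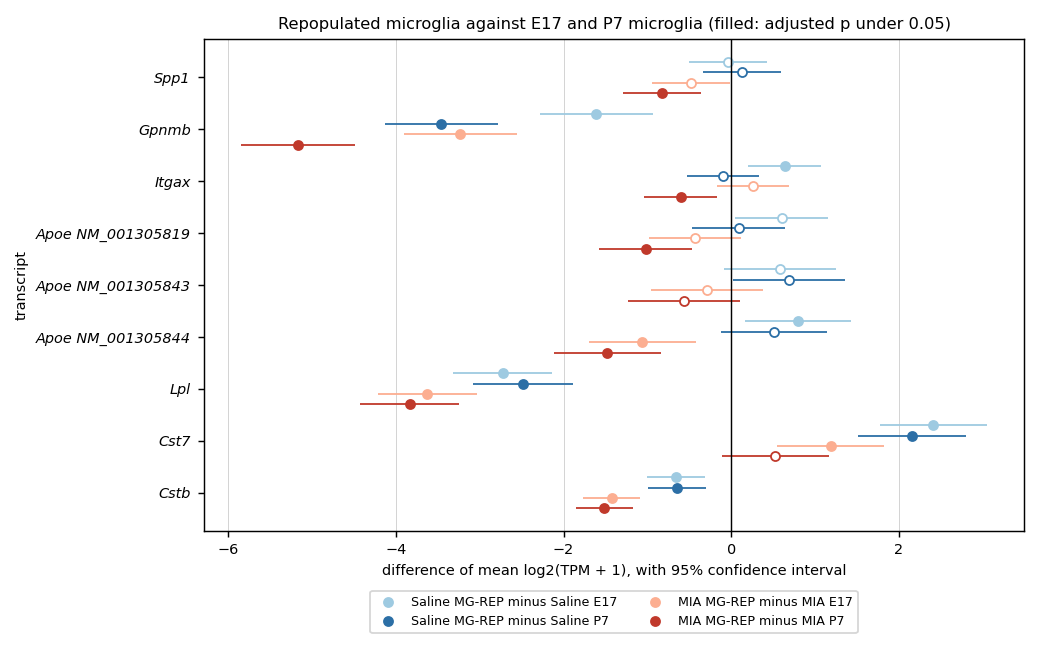
Difference of mean log2(TPM + 1) between repopulated P60 microglia and E17 or P7 microglia of the same maternal group for each member transcript, with 95% confidence intervals and filled points for an adjusted p under 0.05. *Gpnmb* and *Lpl* lie left of 0 in all 4 comparisons and *Cst7* lies right of 0 in all 4, although its MIA difference from P7 (0.52) did not pass.

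The same comparison was made in MIA offspring. Against MIA P7, none of the 9 rows was higher and 7 were lower in MIA + MG-REP, where 28.1% of all rows were lower. The 2 others were *Apoe* NM_001305843 (−0.57, interval −1.24 to 0.10) and *Cst7* (0.52, interval −0.12 to 1.16). Against MIA E17, *Cst7* was higher (1.19 ± 0.31, adjusted p = 0.0028), where 17.7% of all rows were, and *Gpnmb*, *Lpl*, *Cstb* and *Apoe* NM_001305844 were lower, where 31.7% of all rows were. With median-ratio scaling the share of higher among all called rows went from 34.4% to 49.7% against P7 and from 35.8% to 48.9% against E17.

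*Gpnmb* in MIA + MG-REP was 2.28% of MIA P7 (−5.17 ± 0.33, adjusted p = 1.42e-11) and *Lpl* was 6.57% of it (−3.84 ± 0.29, adjusted p = 2.43e-10). *Cstb* was 34.7% of MIA P7 (−1.51 ± 0.17, adjusted p = 1.34e-07). *Itgax* was 63.4% of MIA P7 (−0.60 ± 0.21, adjusted p = 0.023). That last call did not hold after median-ratio scaling (−0.44, adjusted p = 0.19), after quantile normalization (−0.42, adjusted p = 0.22) or without either of P7 MIA replicates 1 and 2 (−0.47 and −0.45, adjusted p = 0.11 and 0.13).

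The fourth question was whether repopulation acted alike in the offspring of both kinds of mother. In P60 MIA + MG-REP, 2 of the 9 members were higher than in MIA + CTRL, where 0.387% of all rows were higher and 0.169% lower. The members' median log2 difference was −0.02, against −0.08 for all rows. *Itgax* rose from 13.7, 15.7 and 19.6 TPM to 49.7, 54.8 and 44.3 TPM, or 3.04 times (1.55 ± 0.21, adjusted p = 0.00016), and it passed in every alternative fit. *Cst7* rose from 16.9–17.8 TPM to 58.0, 48.9 and 42.1 TPM, or 2.88 times (1.46 ± 0.31, adjusted p = 0.023). The *Cst7* libraries did not overlap, but the adjusted p was 0.075 to 0.17 without MIA + CTRL replicate 1, 2 or 3 or MIA + MG-REP replicate 1 or 2, where the difference was 1.35 to 1.49. It was 1.46 with the replicate number as a block (adjusted p = 0.051), 1.48 with only the libraries of over 50 TPM of *Xist* (adjusted p = 0.20) and 1.13 with *Xist* as a covariate (adjusted p = 0.47).

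The other 7 rows did not pass in MIA offspring. *Gpnmb* was measured at 6.01, 4.32 and 3.07 TPM against 3.63, 2.19 and 1.78 TPM in MIA + CTRL (0.63 ± 0.33, adjusted p = 0.86). *Lpl* was measured at 25.9, 31.9 and 24.4 TPM against 27.5, 30.7 and 29.2 TPM (−0.09, interval −0.69 to 0.50), and *Cstb* at 145–160 TPM against 143–163 TPM (−0.02, interval −0.37 to 0.32). These libraries overlapped. Among the 7, the libraries of 2 *Apoe* transcripts did not overlap, which was not counted over all rows either. NM_001305844 was measured at 1.76, 1.23 and 2.44 TPM against 3.86, 2.79 and 4.11 TPM (−0.72 ± 0.31, adjusted p = 0.67), and NM_001305843 at 3.71, 2.92 and 2.17 TPM against 1.96, 1.86 and 2.09 TPM (0.39 ± 0.32, adjusted p = 0.98).

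The difference between the 2 effects of repopulation was tested directly. In 7 of the 9 rows the effect in MIA offspring was smaller than in Saline offspring, where 6.09% of all rows were lower. All 3 *Apoe* rows were among these 7, so counts and medians of rows weigh that gene more. The members' median difference of effects was −1.61, against 0.04 for all rows. The largest was in *Apoe* NM_001305844 (−2.27 ± 0.43, adjusted p = 0.001), followed by *Gpnmb* (−2.11 ± 0.46, adjusted p = 0.0037). For NM_001305844, MIA minus Saline was −1.80 ± 0.31 in MG-REP and 0.47 ± 0.31 in CTRL, which did not pass. Part of its −2.27 thus lay in the CTRL groups. *Itgax* (−0.70 ± 0.30, adjusted p = 0.15) and *Lpl* (−1.04 ± 0.41, adjusted p = 0.11) did not pass. The *Spp1* call was lost with quantile normalization (adjusted p = 0.051) and without Saline + CTRL replicate 2, MIA + CTRL replicate 1, Saline + MG-REP replicate 1 or MIA + MG-REP replicate 1 (differences of −0.89 to −1.06, adjusted p = 0.058 to 0.092). The *Cst7* call was lost with quantile normalization (adjusted p = 0.065), with the groups compared alone (0.069) and without Saline + CTRL replicate 3 (−1.24, adjusted p = 0.069). *Lpl* passed without Saline + MG-REP replicate 3 (−1.35, adjusted p = 0.026). With only the P60 libraries of over 50 TPM of *Xist*, which leaves 1 CTRL library on each side, 2 of the 9 passed, both *Apoe* transcripts (NM_001305819 and NM_001305844). Of the calls lost there, the differences of *Gpnmb* (−2.37, adjusted p = 0.05004), *Spp1* (−1.53, adjusted p = 0.05043) and *Apoe* NM_001305843 (−2.35, adjusted p = 0.053) were at least as large as with all libraries. That of *Cstb* was −1.03 (adjusted p = 0.11) and that of *Cst7* −1.002 (adjusted p = 0.45).

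**Figure D5:**
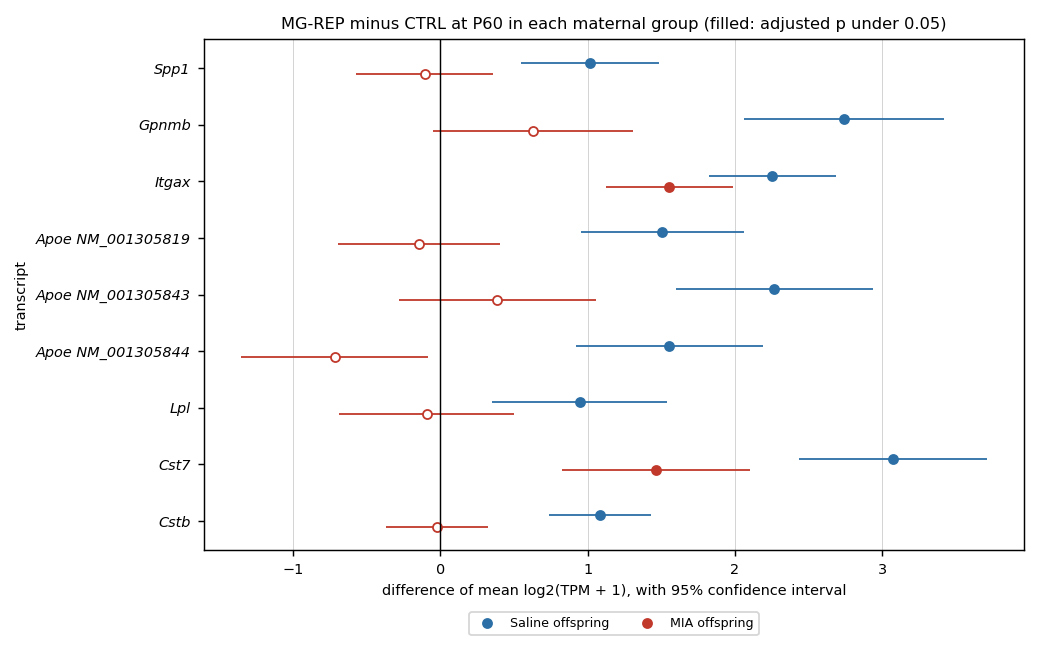
Difference of mean log2(TPM + 1) between MG-REP and CTRL at P60 for each member transcript in Saline offspring (blue) and MIA offspring (red), with 95% confidence intervals and filled points for an adjusted p under 0.05. All 9 Saline points are filled, and the red points are filled for *Itgax* (1.55) and *Cst7* (1.46) only.

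Between the 2 MG-REP groups, where all 6 libraries held *Xist*, all 9 rows were lower in MIA + MG-REP than in Saline + MG-REP, where 11% of all rows were lower. The libraries did not overlap for any of the 9, a count again without its share over all rows. *Gpnmb* was 4.64 times higher in Saline + MG-REP (−2.01 ± 0.33 for MIA minus Saline, adjusted p = 7.68e-05), *Cst7* 3.05 times (−1.52 ± 0.31, adjusted p = 0.00086), *Lpl* 2.63 times (−1.27 ± 0.29, adjusted p = 0.0022), *Cstb* 2.10 times (−1.05 ± 0.17, adjusted p = 5.56e-05) and *Itgax* 1.79 times (−0.82 ± 0.21, adjusted p = 0.0058). The members' median was −1.27, against 0.12 for all rows. Without Saline + MG-REP replicate 1 the *Spp1* difference did not pass (−0.71, adjusted p = 0.059).

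Outside repopulation no member differed between MIA and Saline offspring by the test. At E17, P7, P20 and in P60 CTRL, 0 of the 9 members and 0 of the 14225 rows (0%) passed by limma at each age. The number of rows with an unadjusted p under 0.05 was 585 at E17, 335 at P7, 457 at P20 and 256 in P60 CTRL, and of the members 1, 0, 3 and 1. The member at E17 was *Itgax* (MIA minus Saline −0.44, 95% confidence interval −0.88 to −0.01). Those at P20 were *Spp1* (0.54, 0.07 to 1.00), *Apoe* NM_001305819 (−0.80, −1.36 to −0.25) and *Cstb* (−0.36, −0.71 to −0.02). In P60 CTRL it was *Apoe* NM_001305819 (0.61, 0.06 to 1.16). The 95% confidence interval of *Gpnmb* for MIA minus Saline was −1.06 to 0.30 at E17 and −0.97 to 0.39 at P7. For *Lpl* it was −0.96 to 0.23 and −0.51 to 0.68.

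The members' profiles over the 10 group means were compared as a description. Among the 36 pairs of member rows, Pearson's r ran from −0.07 (*Lpl* with *Cst7*) to 0.96, with a median of 0.75, and *Cst7* with *Gpnmb* had 0.13. The points are group means of the same libraries, with shared controls. In the authors' module annotation, which was made by clustering these same libraries, 4 of the 9 rows (*Spp1*, *Gpnmb*, *Lpl* and *Cstb*) were in the immature microglia module (IM) and 5 (*Itgax*, the *Apoe* rows and *Cst7*) in the module of repopulated adult microglia (REP-AM).

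Rows outside the members with a mean of at least 1 TPM were searched for like profiles over the 10 group means. *Emp3* was most like the members' mean profile (r = 0.98), followed by *Rftn1* (0.98), *Gch1* (0.98), *Slc1a5* (0.97) and *Dna2* (0.97). Each gene named here was picked for its high r, and how high such a maximum runs without a shared cause was not tested. *Emp3*, an epithelial membrane protein, had a mean of 6.63 TPM in Saline + CTRL, 23.4 TPM at Saline P7, 37.2 TPM in Saline + MG-REP and 10.4 TPM in MIA + MG-REP. *Gpnmb* was most like *Hpse* (r = 0.99), which encodes heparanase, with 58.4 TPM at Saline P7, 8.85 TPM in Saline + MG-REP and 3.05 TPM in Saline + CTRL. *Lpl* was most like *Thrap3* (0.99), *Cstb* like *Cdt1* (0.99), *Itgax* like *Gmfg* (0.97), *Spp1* like *Capza2* (0.95) and *Cst7* like *Bcl2a1d* (0.97). *Apoe* NM_001305819 and NM_001305844 were most like *Cxcl1* (0.91 and 0.96) and NM_001305843 like *Myo5a* (0.97).

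Further DAM genes were counted in the same way, as were the lists after them. Over all rows, 11.9% were higher and 14.9% lower in Saline + MG-REP than in Saline + CTRL. The share higher was 24.9% at Saline P7 and 0.387% in MIA + MG-REP. Of 32 rows, 17 were higher and 4 lower in Saline + MG-REP than in Saline + CTRL, with a median of 0.61. At Saline P7, 13 were higher and 2 lower than at P60, where 16.1% of all rows were lower. In MIA + MG-REP 1 was higher. *Ctse*, cathepsin E (2.41 to 47.0 TPM, 3.82 ± 0.36, adjusted p = 1.38e-08), and *Cybb*, a subunit of the phagocyte NADPH oxidase (44.3 to 599 TPM, 3.72 ± 0.24, adjusted p = 3.61e-11), rose most after repopulation, and *Serpine2* fell from 884 to 299 TPM (−1.71 ± 0.25, adjusted p = 8.99e-06). Of 18 rows of genes known from proliferative-region and axon tract microglia, 10 of whose 19 genes stand in other lists as well, 9 were higher and 2 lower in Saline + MG-REP and 11 were higher at Saline P7. Among them *Lgals1*, galectin 1, rose from 70.2 to 704 TPM after repopulation (3.19 ± 0.24, adjusted p = 5.03e-10).

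Genes of homeostatic microglia were counted as well. Of 16 rows, 12 were lower and none higher in Saline + MG-REP (median −0.95), 14 were lower at Saline P7 (median −0.95), and none passed in MIA + MG-REP (median 0.04). *P2ry12*, a purine receptor of resting microglia, fell from 3974 to 828 TPM after repopulation (−2.28 ± 0.24, adjusted p = 7.22e-08), and *Sall1*, a transcription factor of microglial identity, from 659 to 132 TPM (−2.48 ± 0.29, adjusted p = 5.96e-07). The mitotic genes were higher in all 13 rows in Saline + MG-REP (median 4.04) and in all 13 at Saline P7 (median 4.81), and in none in MIA + MG-REP (median 0.11). *Mki67*, the proliferation marker, rose from 3.27 to 137 TPM after repopulation (4.86 ± 0.24, adjusted p = 8.81e-13).

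Of the genes that act with the members, the cathepsins and legumain, which cystatins inhibit, had 9 rows, of which 5 were higher and 2 lower in Saline + MG-REP. Both rows of *Ctsc*, the protease that activates granule serine proteases, rose (2.06 ± 0.18 and 1.65 ± 0.20, adjusted p = 5.63e-09 and 9.75e-07), while *Ctsl* fell (−0.95 ± 0.23, adjusted p = 0.0031) after repopulation and was higher at P7 (1.62 ± 0.23, adjusted p = 5.7e-06). Among 7 rows of other cystatins, the secreted *Cst3* was lower in Saline + MG-REP (52275 to 18116 TPM, −1.59 ± 0.26, adjusted p = 5.61e-05), and 5 were higher at P7. Those 5 include *Stfa1* and *Stfa2*, which belong to a cluster of near-identical copies, so their values are uncertain.

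Among 6 *Spp1* receptor rows, *Itga4* rose (2.57 ± 0.21, adjusted p = 1.96e-09) and *Itgb3* fell (−2.44 ± 0.25, adjusted p = 4.84e-08) after repopulation, and 2 were higher and 3 lower at P7. Among 9 rows for *Apoe* receptors and lipid transport, 2 were higher in Saline + MG-REP, *Apoc2* (0.35 to 8.89 TPM, 2.90 ± 0.33, adjusted p = 2.53e-07) and *Sorl1* (1.01 ± 0.21, adjusted p = 0.0008), and 3 were higher and 3 lower at P7. *Apoc2* is the cofactor that activates lipoprotein lipase. Of 6 rows for *Lpl* partners 1 was higher, *Apoc2*, and 1 lower in Saline + MG-REP, and 2 were higher and 1 lower at P7. At P7 the inhibitor *Angptl4* was higher (11.3 to 94.0 TPM, 2.95 ± 0.42, adjusted p = 5.17e-06) with *Gpihbp1*, which anchors the enzyme (2.05 ± 0.33, adjusted p = 2.29e-05).

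Of 5 rows for partners of *Itgax*, none passed in Saline + MG-REP, and at P7 the beta chain *Itgb2* was lower (517 to 216 TPM, −1.23 ± 0.19, adjusted p = 1.61e-05) and the ligand *Icam1* higher (1.03 ± 0.18, adjusted p = 8.66e-05). For the 3 genes without a row, the genes around them were listed. In the *Igf1* axis of 10 rows 2 were higher and 1 lower in Saline + MG-REP, and 5 were higher at P7, where *Igfbp4*, a binding protein of the growth factor, reached 811 TPM from 145 TPM (2.48 ± 0.14, adjusted p = 2.91e-12). In 6 rows of *Clec7a* signalling 1 was higher in each of these comparisons, *Plcg2* after repopulation (0.48 ± 0.16, adjusted p = 0.033) and *Bcl10* at P7 (0.89 ± 0.15, adjusted p = 3.57e-05). Of 7 galectin rows 2 rose after repopulation, *Lgals1* and *Lgals3bp*, and 1 at P7. In lists this short, counts of 1 or 2 in Saline + MG-REP are close to the shares of all rows, 11.9% higher and 14.9% lower.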

How the data were processed

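RNA was measured in 30 libraries of CD11b+ microglia. Per the labels and the study's methods, libraries were non-stranded and built from poly(A)-enriched RNA, and mm10 was the genome. Rsubread was the aligner and featureCounts the counter, per the same sources. The authors describe dropping genes that did not reach a CPM of 2 in 3 or more of the libraries. How that filter treated single transcripts is not given there. TPM values, deposited by the authors with 1 row per RefSeq transcript, were used here, and their formula is not given in the sources used here. Because counts were not used, no count model was fitted. In R 4.3.3, limma 3.58.1 with a mean-variance trend was fitted to log2(TPM + 1) of all 10 groups, with 18 contrasts and Benjamini-Hochberg adjustment over 14225 rows at 0.05, and was tested on simulated data. No row was filtered out, and a filter on a mean of 1 TPM left 8 of the 9 member rows. Fold changes of low rows are understated on this scale. Percents and folds of levels are ratios of mean TPM.

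The labels do not say whether replicates of a group came from separate litters, so p-values measure the spread between these libraries. Samples were grouped by their titles. Reads per library were estimated from the TPM steps and GENCODE transcript lengths (71.0% to 76.7% of low values within 0.2 of a whole read, 40% by chance). Of the rows, 14124 matched RefSeq genes of GRCm38.p6, and 8 of the 10 genes were in the promoter table. The authors' module column was used as a label only.

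The members and all gene lists were chosen with earlier results of these data known. Every member with a row is named. From each other list the 2 rows with the largest change in either direction among those with an adjusted p under 0.05 could be named, and of the rows with a mean of at least 1 TPM those most correlated with the members (5) or with each member (1). Results were recomputed with each library left out, with 0.1 as the pseudocount, without rows under a mean of 1 TPM, after median-ratio scaling or quantile normalization, with the replicate number blocked, on the groups compared alone, without the trend, and, at P60, with *Xist* as a covariate or on the libraries of over 50 TPM of *Xist*. Same-numbered libraries deviated together, with every correlation over 0.1 (0.1118 to 0.2446), only for MIA against Saline at P20. Python 3.11.15 with matplotlib 3.10.9 drew the figures.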

Additional observations from a re-analysis of the deposited data

Results flagged for a closer look

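In 7 of the 9 rows the effect of repopulation differed between the maternal groups by the test of the difference itself, as MIA minus Saline on the log2 scale. The values were −1.12 for *Spp1* (adjusted p = 0.024, limma), −2.11 for *Gpnmb* (0.0037), −1.65 for *Apoe* NM_001305819 (0.0051), −1.88 for *Apoe* NM_001305843 (0.0081), −2.27 for *Apoe* NM_001305844 (0.001), −1.61 for *Cst7* (0.018) and −1.11 for *Cstb* (0.0028). In each of these rows the lowest Saline + MG-REP library was above the highest MIA + MG-REP library, but how many of all rows did the same was not counted. With 3 libraries a group, single outlying libraries were not looked for by a test. The calls of *Spp1* and *Cst7* did not hold with quantile normalization (adjusted p = 0.051 and 0.065) or without some of the libraries. The MG-REP libraries all held *Xist*, but most CTRL libraries did not. With only the *Xist*-rich P60 libraries, which leave 1 CTRL library on each side, not all calls held. The differences of *Gpnmb*, *Spp1* and *Apoe* NM_001305843 were then at least as large, and those of *Cstb* and *Cst7* were smaller.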

How the results depend on the processing

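Of the 162 member values (9 rows in 18 comparisons), 80 were called, 58 of them in every alternative and 22 not in at least 1. No called value turned its sign in any of the 1129 alternative values of called results, while 59 alternative values of results not called did. For repopulation in MIA offspring, the 2 members called became 1 with the replicate number as a block (*Cst7*, adjusted p = 0.051), with *Xist* as a covariate and with only the P60 libraries of over 50 TPM of *Xist*, and 1 to 2 when a library was left out. The block brought no other count of called members past a change of 1.5 times. The 7 members whose effect of repopulation differed became 2 with only the *Xist*-rich P60 libraries, and 6 to 8 when a library was left out. At P20 in Saline offspring the 1 member called became 0 in a fit of the groups compared, and 0 to 1 when a library was left out, and at P20 in MIA offspring 0 became 1 (*Cst7*) in a fit of the groups compared. Over all rows, the calls of Saline + MG-REP against CTRL went from 3805 to 1886 with the *Xist*-rich libraries and to 2460 at the lowest with 1 library left out, those of MIA + MG-REP from 79 to 29 and 41, those of the difference from 1496 to 638 and 963, and those of MIA against Saline in MG-REP from 3124 to 2314 in a fit of the groups compared and 1731 with 1 library left out. At P20 they went from 499 to 5 in Saline offspring in a fit of the groups compared and to 186 with 1 library left out, and in MIA offspring from 370 to 628 with quantile normalization and to 100 with 1 library left out. MIA against Saline at E17, P7 and P20 went from 0 to at most 1 row with 1 library left out. The causes were not tested. Depth limits the *Spp1* and *Apoe* rows most, and the counts behind them cover single transcripts.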
